A study of Mus musculus with 4 samples.

Results

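The 9 genes below belong to the insulin-like growth factor (IGF) system and were followed through 4 brain sections: the ligand gene Igf1, the receptor gene Igf1r, the adaptor gene Irs4 and 6 binding protein genes, Igfbp2 to Igfbp7. They were picked out by symbol, and no measured value enters the rule. The set was nevertheless chosen with earlier results of these data known, so it is not independent of them. All 9 of 9 symbols were found among the 32285 genes of the count matrix. The sections came from female C57BL/6 mice in 4 groups with 1 library each: aged mice (18 to 20 months) gavaged with ethanol at 3 g/kg, aged mice gavaged with water as vehicle, young mice (3 to 4 months) gavaged with the same ethanol dose, and young mice gavaged with vehicle. Each mouse had 10 gavages over 18 days and was killed 18 hours after the last one. Left hemispheres were frozen and cut coronally at 10 µm, at bregma -2.0 to -2.2 per the labels, and messenger RNA was captured on a Visium slide. Such a slide is an array of barcoded spots, each of which covers a small patch of tissue with several cells and counts captured transcripts as unique molecular identifiers (UMIs).

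IGF1 is a peptide hormone made by the liver and, within the brain, by some neurons and by activated microglia, and it acts through the receptor tyrosine kinase encoded by Igf1r. The receptor passes its signal to docking proteins of the insulin receptor substrate family, of which Irs4 is a member with marked expression in the hypothalamus. The IGF binding proteins are secreted proteins that hold IGFs in tissue fluid and either limit or prolong their access to the receptor. IGFBP7 differs from the others in binding IGFs only weakly. In the brain, IGFBP2 is best known as a product of the choroid plexus and meninges, which also make IGF2.

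Igfbp2 and Igfbp5 lie side by side on chromosome 1 with 5590 bases and 0 annotated genes between them, yet their regional patterns differed, as described below for the choroid plexus, ependyma and white matter. Igfbp2 and Igfbp7 lie on chromosomes 1 and 5 and shared their 2 highest regions. The 250 bases before the annotated start of these 3 genes and of Irs4, the gene most restricted to the hypothalamus, are shown to set these patterns beside the sequence at each start. They are printed 5′ to 3′ in the direction of the gene, from RefSeq on GRCm38.p6, at chr1:72824230-72824479 (plus strand, Igfbp2), chr5:77408046-77408295 (minus strand, Igfbp7), chr1:72874866-72875115 (minus strand, Igfbp5) and chrX:141725218-141725467 (minus strand, Irs4). Capitals mark GGGCGG, the core of the GC box, on either strand, and CACGTG, an E-box that reads the same on both strands.
Igfbp2: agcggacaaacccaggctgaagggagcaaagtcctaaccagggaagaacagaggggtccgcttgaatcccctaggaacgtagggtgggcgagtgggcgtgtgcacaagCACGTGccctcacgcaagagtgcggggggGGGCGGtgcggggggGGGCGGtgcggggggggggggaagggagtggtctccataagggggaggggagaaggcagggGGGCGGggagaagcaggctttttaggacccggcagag
Igfbp7: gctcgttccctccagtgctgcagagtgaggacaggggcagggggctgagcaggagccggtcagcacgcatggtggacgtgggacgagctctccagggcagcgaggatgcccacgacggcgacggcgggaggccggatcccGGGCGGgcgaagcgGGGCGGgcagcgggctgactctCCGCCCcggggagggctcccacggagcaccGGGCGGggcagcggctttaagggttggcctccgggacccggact
Igfbp5: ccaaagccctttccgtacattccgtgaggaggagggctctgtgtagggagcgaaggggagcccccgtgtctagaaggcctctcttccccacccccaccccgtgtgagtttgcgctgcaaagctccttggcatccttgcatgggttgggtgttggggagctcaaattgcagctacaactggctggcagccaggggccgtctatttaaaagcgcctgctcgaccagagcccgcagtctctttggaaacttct
Irs4: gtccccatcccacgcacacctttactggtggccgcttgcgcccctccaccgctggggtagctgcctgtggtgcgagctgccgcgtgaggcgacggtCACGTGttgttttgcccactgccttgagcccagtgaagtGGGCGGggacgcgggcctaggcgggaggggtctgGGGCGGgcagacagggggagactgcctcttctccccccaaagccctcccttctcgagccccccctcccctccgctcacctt
The window before Igfbp2 held 3 copies of GGGCGG and 1 of CACGTG, and the window before Irs4 held 2 and 1. The window before Igfbp7 held 4 copies of GGGCGG and no CACGTG, and neither was found before Igfbp5. TATAAA, searched on both strands, was in none of the 4 windows. Of 32851 promoter windows of the same length, 32.7% held GGGCGG, 6.02% held CACGTG and 12.4% held TATAAA. The bases G and C made up 67.2% of the Igfbp2 window, 74% of the Igfbp7 window, 58.8% of the Igfbp5 window and 69.2% of the Irs4 window. These matches describe letters in the windows and were not tied to any factor.

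After spots with under 500 UMIs were left out, 2642 spots remained in aged ethanol, 2703 in aged vehicle, 2881 in young ethanol and 2716 in young vehicle, with 46005089 to 58307916 UMIs in a library. Levels are given as UMIs scaled to a total of 1000000 (CPM), so that 3 UMIs over a section stood for 0.0515 to 0.0652 CPM. Spots were clustered on other genes into 24 groups, called regions here, of which 21 had at least 5 spots in every library. Regions bear an anatomical name chosen from their markers (CA1, choroid plexus) or are called by a pair of leading genes. The names did not follow a fixed share of markers. The upper neocortex matched 3 of 6 markers of layers 2/3, as did the Igfn1-Tafa2 region. The C1ql2-Cabp7 region matched 5 of 7 dentate granule markers and the Trbc2-Hs3st2 region 4 of 6 layer 6 markers. All 8 of 8 markers of meninges and fibroblasts were detected in the meningeal region of every library, although the labels say that meninges were removed. The plane of section followed the gavage label: a habenula cluster had 23 spots in aged ethanol and 29 in young ethanol and 0 in both vehicle sections, and the choroid plexus had 11 and 12 spots against 24 in each vehicle section. A difference between gavage groups and a difference in plane therefore cannot be told apart. With 1 library per group, the spread between animals was not measured, and no p-value was computed. Intervals are 95% exact intervals for counting error.

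Across regions, some binding protein genes shared a territory and others did not. By mean level, Igfbp2, Igfbp3 and Igfbp7 were all highest in the choroid plexus. Igfbp4, Igfbp5 and Igfbp6 were highest in CA1, the ependyma and the upper neocortex. The receptor gene differed less between regions. A gene was called in a region when every one of the 4 libraries put its CPM 2-fold or more above, or every one 2-fold or more below, that of the library's other spots. By this rule 14 of 189 gene-region pairs were higher (7.41%) and 29 were lower (15.3%), beside 2.3% and 3.61% of all gene-region pairs among genes that took no part in clustering. Irs4 and Igfbp6 each contributed 9 of the lower calls. In 7 of the 29 lower pairs at least 1 library had no UMI of the gene, and the ratio is then a bound. In spots that hold several cells, fewer cells of a type and less RNA per cell cannot be told apart.

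**Figure D1:**
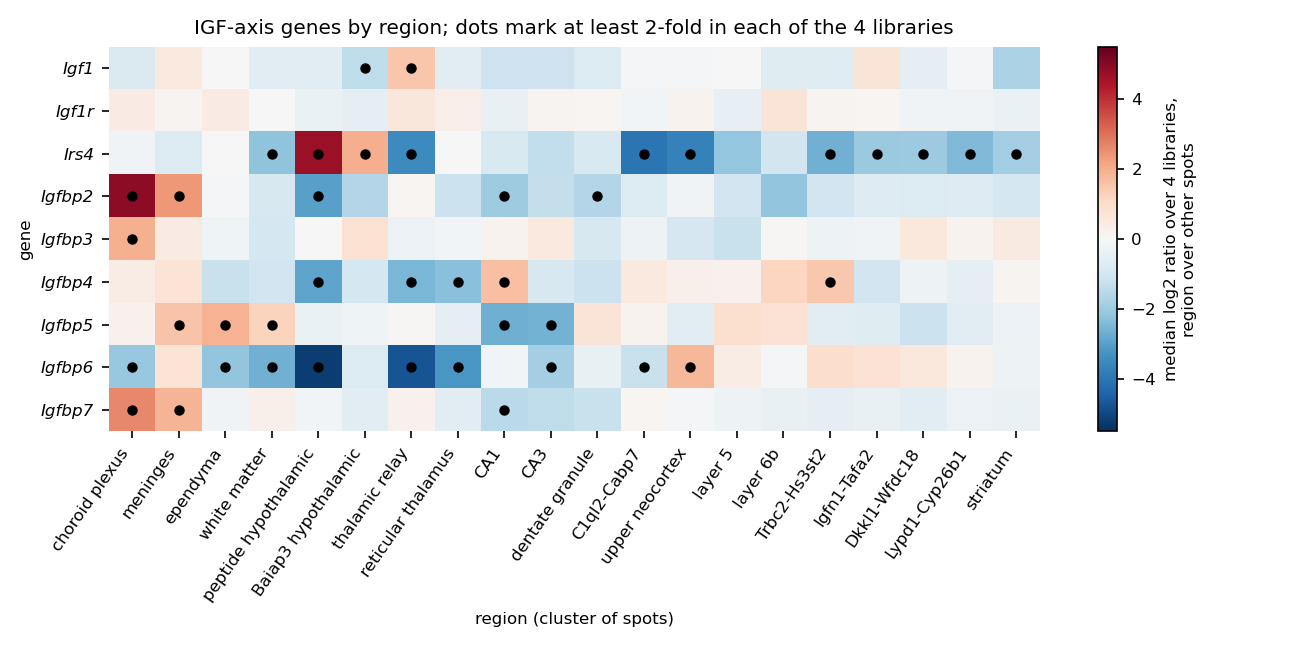
Median log2 ratio of CPM in a region over all other spots of the same library, over 4 libraries, for the 9 genes (rows) in 20 regions (columns). Dots mark called pairs; Igfbp2 and Igfbp7 share the choroid plexus and meninges, Irs4 is highest in the peptide hypothalamic region, and Igf1r has no dot.

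Igf1, the ligand gene, was sparse: it had 365 UMIs in aged ethanol, 251 in aged vehicle, 414 in young ethanol and 297 in young vehicle, with a UMI in 7.99% to 11.9% of spots. Its highest level was in the thalamic relay region, at 20.4 CPM in aged ethanol, 12.2 in aged vehicle, 16.5 in young ethanol and 14.0 in young vehicle. The median log2 ratio to other spots was 1.51 (1.27 to 1.83). Igf1 was the 1 of 9 genes higher there, while Irs4, Igfbp4 and Igfbp6 were lower, beside background shares of 2.87% higher and 5.91% lower. The meninges came second for Igf1, at 8.13, 15.4, 7.04 and 10.9 CPM in the same order of libraries, and exceeded the thalamic relay region in aged vehicle, so that the order of these 2 regions was not the same in all libraries. The Baiap3 hypothalamic region was lower in Igf1, with a median log2 ratio of -1.39 and 7 to 9 UMIs per library.

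Igf1r, the receptor gene, was called in none of the 21 regions. Over the section it stood at 37.7 CPM in aged ethanol, 37.9 in aged vehicle, 38.1 in young ethanol and 37.6 in young vehicle, on 1743 to 2223 UMIs. The 4 sections were thus within counting error of each other. By mean over libraries, its levels ran from 26.1 ± 3.78 CPM (SD, n = 4 libraries) in the Baiap3 hypothalamic region to 65.8 ± 15.5 in layer 6b. The thalamic relay region had 51.0, 56.0, 54.0 and 60.3 CPM in aged ethanol, aged vehicle, young ethanol and young vehicle, a median log2 ratio of 0.61 to other spots. The ranges over libraries of all neighbours in the order of its 21 regional levels overlapped. Regions further apart in that order did not all overlap. The thalamic relay region (51.0 to 60.3 CPM), for example, lay above the Baiap3 hypothalamic region (21.1 to 29.7) and layer 5 (25.4 to 32.5) in every library.

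Irs4, the adaptor gene, was concentrated in the hypothalamus. The peptide hypothalamic region was led, with the 4 libraries pooled, by Hcrt, Pmch, Avp and Oxt, which encode hypothalamic neuropeptides. Its Hcrt and Avp came almost only from the ethanol libraries, as given below. The region had 56.0 CPM of Irs4 in aged ethanol, 127 in aged vehicle, 41.1 in young ethanol and 93.9 in young vehicle. The Baiap3 hypothalamic region had 16.1, 36.3, 10.7 and 35.8 CPM in the same order. Both were higher than other spots in each library, with median log2 ratios of 4.76 (4.61 to 4.93) and 1.99 (1.53 to 3.74), and the peptide region exceeded the Baiap3 region in all 4 libraries. In the peptide hypothalamic region 1 of 9 genes was higher and 3 were lower, beside 1.86% and 2.48% of background genes, and in the Baiap3 region 1 was higher and 1 lower, beside 1.11% and 1.73%. The peptide region held 63.6%, 56.4%, 65.7% and 22.6% of all Irs4 UMIs of the sections, the last value being young vehicle, where that region had 23 spots against 121 to 225 in the other libraries. Irs4 was lower in 9 regions, in 6 of them with no UMI in at least 1 library. In CA1, 0 UMIs were counted in all 4 libraries. Besides the thalamic relay region and white matter, these 9 included 1 call in each of the Trbc2-Hs3st2, Lypd1-Cyp26b1, upper neocortex, C1ql2-Cabp7, striatum, Igfn1-Tafa2 and Dkkl1-Wfdc18 regions, beside 3.08%, 1.82%, 3.48%, 2.24%, 1.59%, 3.94% and 1.97% of background genes lower there.

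Igfbp2 had its highest level in the choroid plexus but was not confined to it. A UMI of it was found in 34.4% of all spots in aged ethanol to 46.1% in young vehicle. The thalamic relay region, for example, had 45.1 to 70.2 CPM. Choroid plexus spots held 1057 CPM in aged ethanol, 1577 in aged vehicle, 907 in young ethanol and 1323 in young vehicle, a median log2 ratio of 4.93 (4.84 to 5.03), and every choroid plexus spot had a UMI of it. The meninges came next, at 206, 303, 167 and 324 CPM (median log2 ratio 2.40), above the third region in every library. All 4 libraries kept this order of choroid plexus over meninges. Igfbp2 was lower than elsewhere in the peptide hypothalamic region (median log2 ratio -2.98), in CA1 (-1.97) and in the dentate granule region (-1.60). In the choroid plexus 3 of 9 genes were higher and 1 was lower, beside 8.24% and 11.7% of background genes, and in the meninges 3 were higher and 0 lower, beside 4.92% higher. In the dentate granule region Igfbp2 was the 1 gene of 9 lower, beside 3.73%.

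Igfbp7 and Igfbp3 were the other genes higher in the choroid plexus. Igfbp7, also known as an endothelial product, stood at 427 CPM in aged ethanol, 281 in aged vehicle, 161 in young ethanol and 277 in young vehicle there (median log2 ratio 2.62). In the meninges Igfbp7 had 125, 250, 174 and 155 CPM (1.85), so that choroid plexus and meninges overlapped between libraries and young ethanol was the 1 library with more in the meninges. Igfbp3, a main IGF carrier of blood plasma, reached 52.7, 39.3, 23.1 and 34.8 CPM in the choroid plexus (median log2 ratio 1.97), on 9 to 31 UMIs. It was called in no other region. Over 84 region and library sums, Igfbp2 correlated with Igfbp7 at r = 0.79, as a description of sums that share libraries and regions.

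Igfbp5, which is expressed by glia and many neurons and binds to extracellular matrix, had its highest mean level in the ependyma, the cell layer lining the ventricles. The ependyma had 243 CPM in aged ethanol, 209 in aged vehicle, 263 in young ethanol and 285 in young vehicle (median log2 ratio 1.90), where Igfbp5 was the 1 gene of 9 higher and Igfbp6 the 1 lower, beside 6.16% and 4.21% of background genes. White matter had 171, 132, 145 and 154 CPM (1.24), again as the 1 gene of 9 higher, while Irs4 and Igfbp6 were lower, beside 6.19% and 11.2%. The meninges had 363, 160, 162 and 194 CPM (1.56). In aged ethanol 138 of the 447 meningeal UMIs lay in 1 spot, and its level was 262 CPM without that spot, still above the other libraries. In the choroid plexus Igfbp5 was not called, with 92.2, 63.8, 105 and 77.5 CPM, which sets it apart from its neighbour Igfbp2 there.

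Between the CA1 and dentate granule regions, Igfbp4 and Igfbp5 differed in opposite directions. Igfbp4 had 268 CPM in aged ethanol, 194 in aged vehicle, 199 in young ethanol and 190 in young vehicle in CA1, its highest region in every library (median log2 ratio to other spots 1.66). In the dentate granule region Igfbp4 had 21.8, 38.2, 34.7 and 19.7 CPM. Igfbp5 ran the other way: it had 125, 98.6, 103 and 113 CPM in the dentate granule region, against 12.4, 9.54, 5.32 and 12.0 CPM in CA1 and 9.73, 11.5, 14.6 and 10.3 CPM in CA3. For dentate granule against CA1, Igfbp5 was higher by a median log2 ratio of 3.35 and Igfbp4 lower by a median of -2.90. In that comparison 1 gene was called higher and 1 lower, beside 2.95% and 2.9% of background genes. Igf1, Irs4, Igfbp2 and Igfbp3 had too few UMIs there to be tested. Igfbp5 was also higher in dentate granule against CA3 (3.28), the 1 gene called, beside 3.71%, with Igf1, Irs4 and Igfbp3 not tested. Igfbp4 was lower in CA3 against CA1 (-2.39), again the 1 gene called, beside 1.96%, with Igf1, Irs4 and Igfbp5 not tested. Against all other spots 1 gene of 9 was higher and 3 were lower in CA1 (beside 2.49% and 5.52%), and 2 were lower in CA3 (beside 4.33%), namely Igfbp5 and Igfbp6. The comparisons among hippocampal regions were added after the data had been seen. They left out the C1ql2-Cabp7 region, which matched 5 of 7 dentate granule and 2 of 5 CA1 markers and held both genes. Its Igfbp4 was 97.6 CPM in aged ethanol, 83.1 in aged vehicle, 88.2 in young ethanol and 104 in young vehicle. Its Igfbp5 was 82.1, 70.2, 75.5 and 76.2 CPM in the same order.

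**Figure D2:**
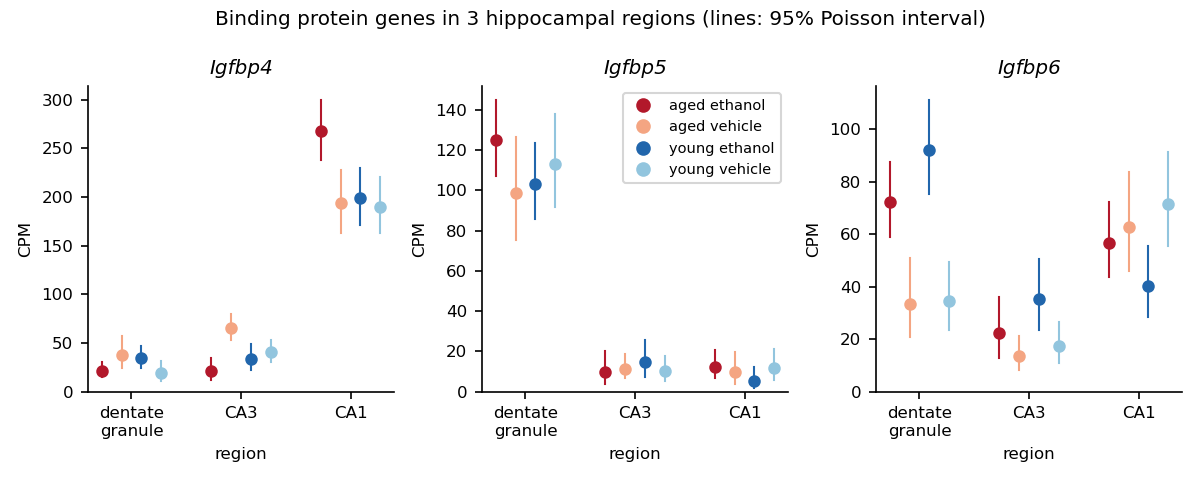
CPM of Igfbp4, Igfbp5 and Igfbp6 (panels) in the dentate granule, CA3 and CA1 regions, 1 point per library with its 95% Poisson interval. Igfbp4 is highest in CA1 and Igfbp5 in the dentate granule region in all 4 libraries, and dentate Igfbp6 is higher in the 2 ethanol libraries than in the 2 vehicle libraries.

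Igfbp6 was higher in the upper neocortex, and Igfbp4 in a different cluster. Igfbp6, a binding protein with preference for IGF2, had its highest level in the upper neocortex in every library, with 150 CPM in aged ethanol, 190 in aged vehicle, 221 in young ethanol and 206 in young vehicle (median log2 ratio 1.82). It was the 1 gene of 9 higher there, beside 1.02%. Igfbp4 was higher in the Trbc2-Hs3st2 region, at 165, 146, 153 and 156 CPM (1.49), the 1 gene of 9 higher, beside 0.75%. By mean over libraries, Igfbp6 was lowest in the peptide hypothalamic and thalamic relay regions, but not in the Baiap3 hypothalamic region (27.0 to 45.5 CPM). Its median log2 ratio was -5.24 in the peptide hypothalamic region, which held 1 to 10 UMIs per library, and -4.76 in the thalamic relay region, which held 3 to 38. Igfbp4 was also lower in both, at -2.92 and -2.53. Both were also lower in the reticular thalamus, 2 of 9 genes beside 1.31%, on very few UMIs. That region had 6 spots in aged vehicle, where 3 UMIs stood for 34.5 CPM, and Igfbp6 was at 0 CPM in both young libraries. Over the 84 sums Igfbp4 and Igfbp6 correlated at r = 0.73, below the value of Igfbp2 with Igfbp7 and above every other pair of the 9 genes.

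The genes with patterns most like each of the 9 were read from log2(CPM + 1) over the 84 sums of 21 regions in 4 libraries, among 12562 genes, as a description. For Irs4 they were Arhgap36 (r = 0.92), Otp, a homeobox gene of hypothalamic neurons (0.90), and H2-Q2 (0.89). For Igfbp2 they included Slc13a4 (0.86) and the ligand gene Igf2 (0.84). For Igfbp6 they were the potassium channel gene Kcnh3 (0.85) and the immediate early genes Egr3 (0.84) and Ier5 (0.84), and for Igfbp7 Pcolce, Cpq and Vcam1 (0.84, 0.84 and 0.83). Igfbp5 was closest to Cavin3 (0.78), Fmnl2 (0.77) and Gprc5b (0.76), and Igfbp4 to Wnt2 (0.75), Nr4a2 (0.73) and Igfbp6. For the genes with few UMIs or flat levels the best values were lower, at 0.66 for Igf1 (Opn3), 0.65 for Igfbp3 (Tbc1d9) and 0.63 for Igf1r (Zfand6).

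The other 41 genes of the pathway, in 4 lists, put Igf2 in the same regions as Igfbp2 and gave few calls in the kinase cascade. Of 9 ligands, receptors and carriers, 2 were higher in some region, 1 was lower in some and 7 were called nowhere. Igf2 was higher in the choroid plexus (median log2 ratio 4.68) and meninges (4.18) and lower in 11 regions, and Ghr, the growth hormone receptor gene, was higher in the peptide hypothalamic region. Of 9 adaptors, 4 were higher in some region, 3 lower and 5 called nowhere: Grb14 and Gab1 were both higher in white matter (2.86 each), Grb10 in the peptide and Baiap3 hypothalamic regions (2.05 and 1.43) and Shc1 in the meninges (2.26). Of 5 proteases and inhibitors, which release or spare IGFs by cutting binding proteins, 1 was higher, 2 were lower and 3 were called nowhere. Pappa2 was higher in the Lypd1-Cyp26b1 (2.60), Baiap3 hypothalamic (2.33) and Igfn1-Tafa2 (1.54) regions. Of 18 genes of the kinase cascade, 14 were called nowhere, 3 were lower somewhere, such as Pik3r1 in CA3 (-1.97), and 1 was higher, Foxo1 in the dentate granule region (2.19) and ependyma (1.57). Gene-region pairs of the lists had median log2 ratios of -0.09, -0.14, 0 and -0.03 in the order ligands, adaptors, proteases and kinases, against -0.35 for the 9 genes.

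For ethanol against vehicle over the whole section, the largest difference among the 9 genes was in Igfbp2. Igfbp2 stood at 40.4 CPM in aged ethanol, against 75.2 in aged vehicle, and at 36.3 in young ethanol, against 67.9 in young vehicle. Both ethanol libraries lay below both vehicle libraries, with ratios of 0.537 (0.507 to 0.567) in aged and 0.535 (0.506 to 0.564) in young mice. Between 2 libraries, a call needed a 2-fold difference and 50 or more UMIs on the higher side, and 0 of 9 genes were called at either age, beside 0.687% higher and 0.988% lower of all genes in aged and 1.23% and 0.955% in young mice. Igf2, which shares the regions of Igfbp2, had ratios of 0.550 and 0.542. Ins2, an insulin gene that mouse choroid plexus also expresses, was called lower at both ages, with 13 UMIs in aged ethanol against 93 in aged vehicle and 19 in young ethanol against 91 in young vehicle. The summed choroid plexus markers, all 6 of 6 detected in each library, moved with these genes: 1725 CPM in aged ethanol, against 5703 in aged vehicle, and 1253 in young ethanol, against 4717 in young vehicle.

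**Figure D3:**
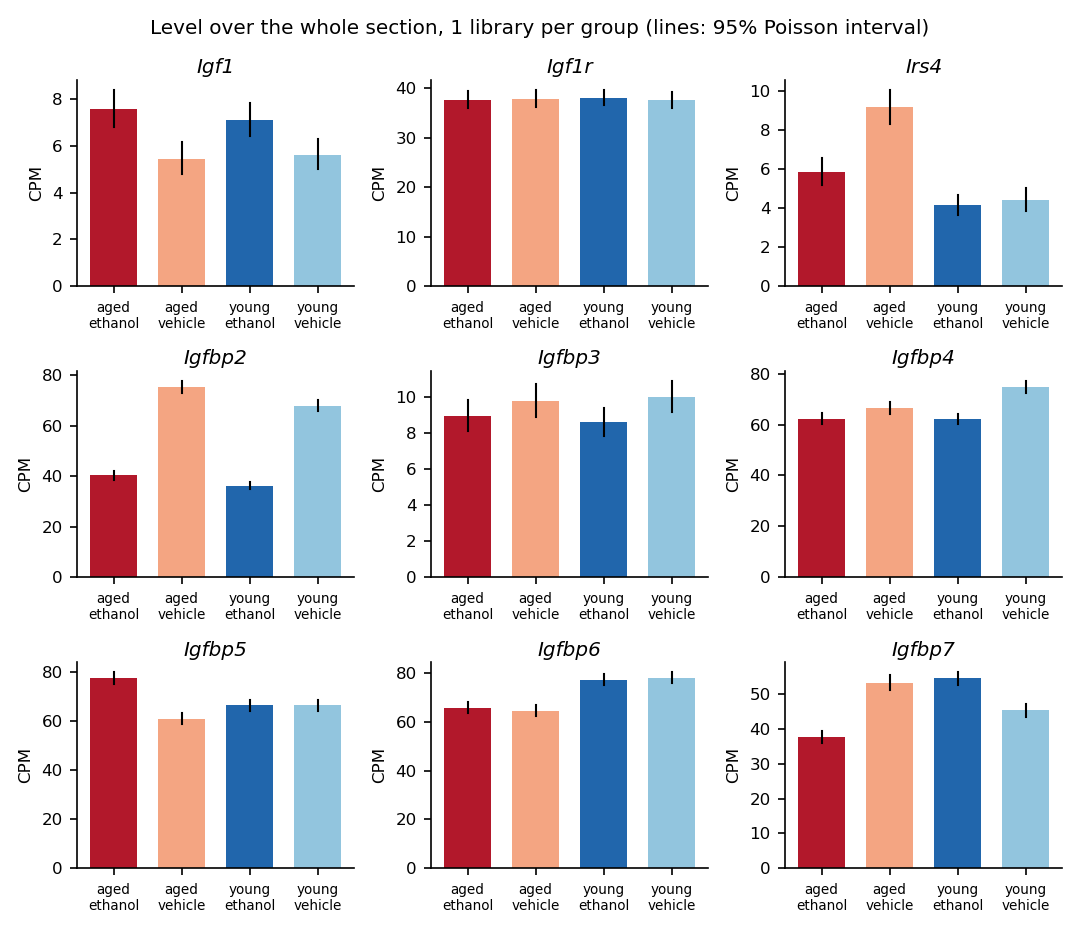
CPM of each of the 9 genes over the whole section, 1 bar per library with its 95% Poisson interval. Igfbp2 is lower in both ethanol sections, Irs4 is highest in aged vehicle, Igfbp7 is lowest in aged ethanol, and Igf1r is level in all 4.

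The Igfbp2 difference was smaller, but still present, once spots rich in a choroid plexus transcript were left out. Spots with at least 1000 CPM of Ttr, the transthyretin transcript that marks choroid plexus epithelium, made up 5.41% of spots in aged ethanol, 14.2% in aged vehicle, 4.93% in young ethanol and 20.0% in young vehicle. Without them Igfbp2 stood at 30.8 CPM in aged ethanol, against 42.0 in aged vehicle, a ratio of 0.734 (0.682 to 0.789). In young mice it stood at 29.7 CPM in ethanol, against 43.7 in vehicle, a ratio of 0.678 (0.634 to 0.726). Within the choroid plexus region itself the ethanol over vehicle ratio was 0.670 (0.597 to 0.752) in aged and 0.686 (0.607 to 0.773) in young mice, and within the meninges it was 0.678 (0.582 to 0.789) and 0.515 (0.445 to 0.596). Ttr in choroid plexus spots moved the same way, at 183905, 258800, 152759 and 217868 CPM in aged ethanol, aged vehicle, young ethanol and young vehicle. Outside these tissues the ratio was near 1 in some regions, such as the Trbc2-Hs3st2 region (1.04 in aged and 1.07 in young mice without Ttr-rich spots). Other regions lay below 1 at 1 age or both. The thalamic relay region, for example, had 0.951 (0.764 to 1.19) in aged and 0.636 (0.527 to 0.771) in young mice without Ttr-rich spots. The spots left in were not free of Ttr. In layer 5, where no spot reached the limit, Ttr was 41.2 CPM in aged vehicle, against 10.5 in aged ethanol. In young mice it was 110 CPM there in vehicle, against 8.78 in ethanol. Most meningeal spots were also left in, so these ratios are not free of choroid plexus or meningeal signal. Leaving out Ttr-rich spots was chosen after the data had been seen.

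Igfbp2 accounted for many of the calls within regions. Over all regions compared, 3 gene-region pairs were higher and 9 lower of 95 tested in aged mice (3.16% and 9.47%), beside 0.787% and 0.764% of all pairs, and 2 were higher and 8 lower of 101 in young mice (1.98% and 7.92%), beside 0.88% and 0.705%. In the striatum Igfbp2 had 19.3 CPM in aged ethanol, against 160 in aged vehicle, and 10.7 in young ethanol, against 38.9 in young vehicle. Ttr in the same spots was 928 CPM against 19722, and 815 against 3168. Beside these Igfbp2 calls, 2.6% of genes were lower there in aged and 0.756% in young mice. In the Dkkl1-Wfdc18 region Igfbp2 was called lower in aged mice alone (23.9 CPM in ethanol, against 69.3 in vehicle), with Ttr at 114 against 5032 and 0.301% of genes lower, and in the Baiap3 hypothalamic region in young mice alone (9.61 against 43.3), with Ttr at 16.1 against 3757. In each of these regions the library with most Igfbp2 was the library with most Ttr. White matter, called in young mice (19.5 CPM in ethanol, against 60.0 in vehicle, ratio 0.325, beside 0.66% of genes lower), had Ttr at 1113 against 5305. Without Ttr-rich spots none of the Igfbp2 calls named here reached the minimum for a call. The white matter ratio was then 0.398 (0.237 to 0.655), on 27 and 45 UMIs, and the young striatum ratio 0.327 (0.123 to 0.893), on 11 and 9. The aged Dkkl1-Wfdc18 ratio was 0.570 (0.318 to 1.08), on 48 and 16. The young Baiap3 ratio was 2.31 (0.390 to 93.9), on 37 UMIs against 1. In the aged vehicle striatum 3 spots were left, with 0 Igfbp2 UMIs.

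**Figure D4:**
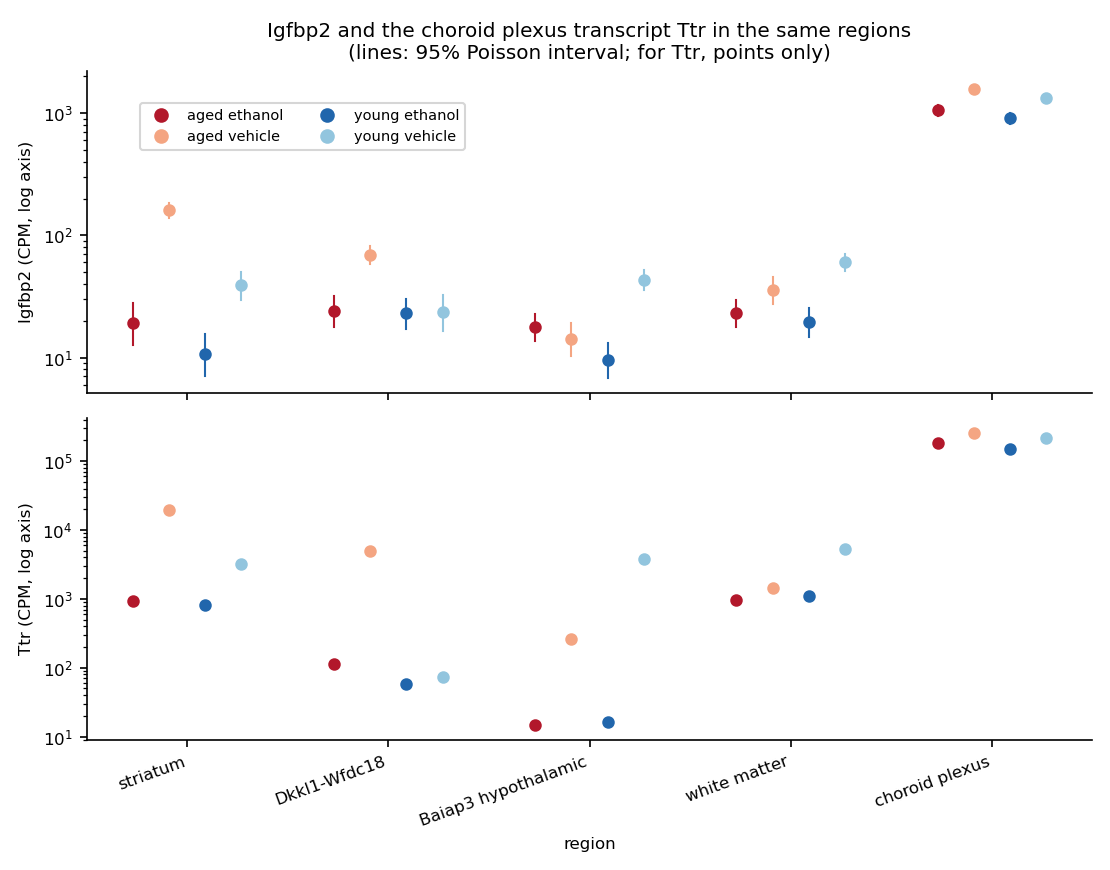
CPM on log axes of Igfbp2 (top) and Ttr (bottom) in 5 regions, 1 point per library. In the striatum, Dkkl1-Wfdc18, Baiap3 hypothalamic and white matter regions the library with most Igfbp2 is also the library with most Ttr.

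Irs4 was lower with ethanol in both hypothalamic regions at both ages, although over the section its ratio was 0.641 (0.549 to 0.747) in aged and 0.937 (0.779 to 1.13) in young mice. Without Ttr-rich spots, which included 99 of the 105 Baiap3 spots of young vehicle, the log2 ratio over the young section was 0.46 in place of -0.09, and with regions weighted alike it was -1.06. In the peptide hypothalamic region Irs4 had 56.0 CPM in aged ethanol, against 127 in aged vehicle, and 41.1 in young ethanol, against 93.9 in young vehicle, with ratios of 0.441 (0.362 to 0.538) and 0.438 (0.319 to 0.610). In the Baiap3 region the ratios were 0.444 (0.316 to 0.618) in aged and 0.298 (0.202 to 0.432) in young mice. Both ethanol libraries lay below both vehicle libraries in each region. Beside these calls stand 0.524% of genes lower in the peptide region and 0.691% in the Baiap3 region in aged mice, and 1.26% and 1.22% in young mice. Without the spot with most Irs4, the young ratio in the peptide region was 0.513 (0.361 to 0.743), just short of the rule. Without Ttr-rich spots, which leaves 6 spots in young vehicle, the young Baiap3 ratio was 0.214 (0.110 to 0.447), on 41 UMIs against 12, too few for a call. Otp, among the genes most like Irs4, had ethanol levels in the peptide region of 82.1 and 53.6 CPM, against 91.1 and 70.8 with vehicle, in aged and young mice. The peptides of that region differed far more: Hcrt had 3948 CPM in aged ethanol, against 16.0 in aged vehicle, and 3690 in young ethanol, against 0 in young vehicle, and Avp had 2863 against 1.07 and 1489 against 0. The part of this different hypothalamic make-up in the Irs4 values was not tested.

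Igfbp3 moved the other way in the peptide hypothalamic region, at 17.1 CPM in aged ethanol, against 5.86 in aged vehicle, and 14.5 in young ethanol, against 5.31 in young vehicle. The ratios were 2.92 (1.51 to 6.18) and 2.73 (0.886 to 13.6), the second on 56 UMIs against 3, so that its interval reached below 1. Shares of genes called higher there were 1.29% in aged and 2.74% in young mice. In aged mice Igfbp3 was lower in the Trbc2-Hs3st2 region, at 6.47 against 13.0 CPM, where 0.217% of genes were lower. The ratio of 0.496 was 0.501 without the spot with most Igfbp3 and 0.602 (0.381 to 0.949) without Ttr-rich spots, neither of which met the rule, and the region gave no Igfbp3 call in young mice.

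**Figure D5:**
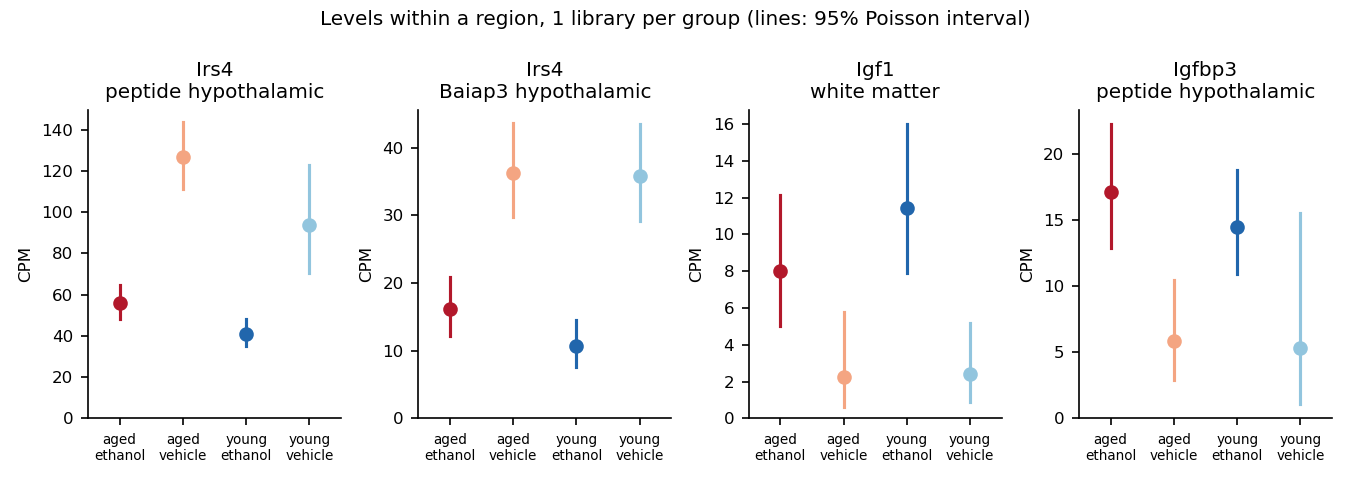
CPM within a region for Irs4 (peptide and Baiap3 hypothalamic regions), Igf1 (white matter) and Igfbp3 (peptide hypothalamic region), 1 point per library with its 95% Poisson interval. Irs4 is lower in both ethanol libraries, Igf1 and Igfbp3 are higher in both, and the young vehicle interval of Igfbp3 is wide.

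Igfbp6 was higher with ethanol in the dentate granule region at both ages. A UMI of it was found in 89.7% of dentate granule spots in aged ethanol, 46.7% in aged vehicle, 89.2% in young ethanol and 61.5% in young vehicle, and in 20.5%, 16.7%, 35.1% and 30.8% after each spot was thinned to 5000 UMIs. Igfbp6 had 72.3 CPM in aged ethanol, against 33.4 in aged vehicle, and 92.1 in young ethanol, against 34.7 in young vehicle. The ratios were 2.17 (1.35 to 3.65) and 2.65 (1.76 to 4.12), on 103 against 21 and 106 against 30 UMIs, with no overlap of the ethanol and vehicle libraries. It was the 1 gene of the 9 called there at each age, beside 1.28% of genes higher in aged and 0.398% in young mice. No single spot carried it, since the spot with most Igfbp6 held 4 to 8 UMIs. Kcnh3, the gene most like Igfbp6 over regions, had 92.7 CPM against 52.5 and 87.8 against 54.4 in the same spots, whereas Prox1, which marks granule cells, had 204 against 161 and 176 against 162. Egr3 and Ier5 had ethanol over vehicle levels of 144 against 126 and 119 against 100 CPM in aged, and 121 against 111 and 121 against 116 in young mice. Markers of interneurons, 8 of 8 detected, summed to 772 CPM in aged ethanol, against 766 in aged vehicle, and 1164 in young ethanol, against 560 in young vehicle. In CA1 both ethanol libraries lay below both vehicle libraries in Igfbp6, at 56.8 against 62.7 CPM in aged and 40.5 against 71.7 in young mice, and neither ratio met the rule (0.905, 0.610 to 1.35, and 0.564, 0.368 to 0.853).

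Igf1 was slightly higher with ethanol over the section, by a ratio of 1.39 (1.18 to 1.64) in aged and 1.26 (1.09 to 1.47) in young mice. The clearest regional difference was in white matter, on few UMIs: 22 in aged ethanol, against 4 in aged vehicle, and 34 in young ethanol, against 6 in young vehicle, or 8.03 against 2.26 and 11.4 against 2.39 CPM. The ratios were 3.55 (1.20 to 14.2) and 4.80 (1.99 to 14.0), but neither reached the minimum of 50 UMIs for a call. The UMIs were spread out, with at most 2 Igf1 UMIs in a spot. Markers of microglia, all 9 of 9 detected, moved with Igf1 in white matter and summed to 2045 CPM in aged ethanol, against 1177 in aged vehicle, and 2724 in young ethanol, against 1082 in young vehicle. Among them Cx3cr1 had 57.7 against 24.9 and 55.2 against 22.7 CPM. The part of microglia in the Igf1 values was not tested. In the thalamic relay region the Igf1 ratio was 1.67 (1.12 to 2.56) in aged and 1.18 (0.797 to 1.80) in young mice. That region had 479 and 473 spots in the ethanol sections, against 216 and 197 in the vehicle sections.

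Igfbp7 had opposite directions at the 2 ages. Over the section it had 37.6 CPM in aged ethanol, against 53.3 in aged vehicle (ratio 0.706, 0.664 to 0.751), and 54.6 in young ethanol, against 45.4 in young vehicle (ratio 1.20, 1.14 to 1.27). It was lower in 17 of 21 regions in aged mice, with intervals below 1 in 7 of them, and higher in 17 of 22 regions in young mice, with intervals above 1 in 10. In the thalamic relay region the aged ratio was 0.581 (0.471 to 0.719) and the young ratio 1.03 (0.856 to 1.26). The meninges gave 0.501 (0.415 to 0.604) and 1.12 (0.944 to 1.33). Of the other regions at each age, the choroid plexus was the 1 with an interval that excluded 1, at 1.52 (1.23 to 1.88) in aged and 0.582 (0.434 to 0.770) in young mice. Markers of endothelium, 8 of 8 detected, summed to 221 CPM in aged ethanol, against 265 in aged vehicle, and 261 in young ethanol, against 242 in young vehicle. Their part in the Igfbp7 values was not tested.

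Other calls between gavage groups concerned Igfbp4 and Igfbp5. Igfbp4 was lower in aged ethanol in CA3 (20.8 against 65.4 CPM, ratio 0.319, 0.171 to 0.554) and layer 5 (57.7 against 118 CPM), where 0.638% and 1.85% of genes were lower. The layer 5 ratio of 0.488 was 0.505 without the spot with most Igfbp4, just short of the rule. Igfbp5 was lower in young ethanol in the Baiap3 region (39.2 against 78.8 CPM), with a ratio of 0.498, which was 0.556 (0.336 to 0.979) without Ttr-rich spots and then not called. It was higher in the aged ethanol meninges (363 against 160 CPM, where 0.565% of genes were higher), but without the spot that held 138 UMIs the ratio was 1.69 (1.43 to 2.00) in place of 2.27, which is not called. In the dentate granule region Igfbp5 was within counting error at both ages, with ratios of 1.27 (0.945 to 1.72) and 0.912 (0.692 to 1.20).

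For aged against young mice, 1 gene of 9 was called over the section. Irs4 had 9.17 CPM in aged vehicle, against 4.43 in young vehicle, a ratio of 2.07 (1.76 to 2.44), where 0.252% of genes were higher and 0.105% lower. Among ethanol libraries 0 of 9 genes were called (beside 0.173% higher and 0.319% lower), and Irs4 had 5.88 against 4.15 CPM, a ratio of 1.42 (1.19 to 1.69). The vehicle sections differed in how many spots fell in the peptide hypothalamic region, 121 in aged and 23 in young mice. When regions were given the same weight in each library, the log2 ratio of Irs4 was 0.28 in place of 1.05, and without Ttr-rich spots it was 1.81. Within the peptide region it was 127 against 93.9 CPM and within the Baiap3 region 36.3 against 35.8 CPM, neither of them called.

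Within regions, age gave fewer calls than gavage. Among vehicle libraries 2 of 95 gene-region pairs were higher and 3 lower (2.11% and 3.16%, beside 0.327% and 0.413%), and among ethanol libraries 3 of 90 were higher and 1 lower (3.33% and 1.11%, beside 0.235% and 0.409%). Of the vehicle calls, 3 were Igfbp2 in the Baiap3 hypothalamic (14.2 CPM in aged, against 43.3 in young vehicle), striatum (160 against 38.9) and Dkkl1-Wfdc18 (69.3 against 23.6) regions, those with the uneven Ttr given above, beside 0.363% of genes lower, 0.422% higher and 0.324% higher. The others were in layer 6b, where Igfbp4 had 74.3 CPM in aged vehicle, against 166 in young vehicle, and Igfbp6 had 29.7 against 78.0, on 31 and 47 spots, where 1.2% of genes were lower. Without Ttr-rich spots, Igfbp6 in layer 6b was the 1 vehicle call that was still met. Among ethanol libraries Igfbp7 was higher in the choroid plexus of aged mice (427 against 161 CPM, ratio 2.64, 1.97 to 3.60, where 1% of genes were higher), a region in which every spot was rich in Ttr. Igfbp5 was higher in the aged meninges (363 against 162 CPM), where 0.536% of genes were higher, with a ratio of 1.66 without the spot with 138 UMIs, and in the habenula (185 against 86.0 CPM, where 0.507% were higher), which only the ethanol sections held.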

How the data were processed

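Messenger RNA of 4 brain sections, 1 library each, was measured by Visium. The values are raw UMI counts per gene and spot, as deposited by the authors in 1 matrix of 11064 spots and 32285 genes. Space Ranger 1.3.1 is named per the file headers, and Space Ranger 2.0.0 with mm10 per the submitters' processing notes. The annotation release and any subsampling of reads are not given in the sources used here. Of 4187 position barcodes, 3481 occur in more than 1 library, because barcodes mark array positions.

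Spots with at least 500 UMIs were kept (10942). For clustering, each spot was brought to 10000 counts on a log scale, then standardised by library. The input was 1665 features (1500 variable genes and 165 markers, without the 9 genes or the pathway lists), 30 principal components, 15 neighbours and Leiden resolution 1. Levels are CPM of summed counts with exact Poisson intervals, and ratios have exact conditional binomial intervals, both at 95%. A gene with 0 UMIs on 1 side was set to 3 UMIs there. Region calls needed 20 UMIs over both sides in each library, and 7462 genes outside clustering gave their background. The calling script was tested on simulated data.

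All 9 genes are named, with at most 4 pathway genes per list and direction, the 3 genes most like each by correlation, and defining markers. The 9 genes and the lists were chosen with earlier results of these data known. Python 3.11.15, numpy 2.4.6, scipy 1.17.1, pandas 2.3.3, scanpy 1.11.5, leidenalg 0.10.2 and igraph 0.11.9 were used. Counts over all regions and lists are complete, but the single values of 1 region and of some genes are not reported here.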

Additional observations from a re-analysis of the deposited data

Results flagged for a closer look

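The ethanol over vehicle difference of Igfbp7 over the section ran in opposite directions at the 2 ages, with a log2 ratio of -0.50149 in aged mice and 0.26655 in young mice. Each age had 1 library per gavage group, so the difference between the ages was not tested.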

How the results depend on the processing

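Higher region calls (14) kept within 1.5-fold under every alternative run, and leaving out 1 library gave 14 to 15. Lower region calls (29) were 30 to 34 without 1 library, 44 with a 1.5-fold rule, 19 at Leiden resolution 0.5, and 18 when 20 UMIs had to be seen or expected in the region, an alternative chosen after seeing the data. Over the section, the genes called for ethanol against vehicle were 1 in young and 2 in aged mice with a 1.5-fold rule, in place of 0. With regions weighted alike, 1 was called in young mice (Irs4), and for aged against young vehicle 0 in place of 1. Gene-region pairs called with a 1.5-fold rule were 23 for ethanol in young mice (10 otherwise), 26 in aged mice (12), 12 for age with vehicle (5) and 14 for age with ethanol (4). With a minimum of 20 UMIs they were 20 in young mice, 21 in aged mice and 9 for age with ethanol. Without Ttr-rich spots, chosen after seeing the data, the pairs for age with vehicle were 1. The causes of these shifts were not tested, apart from the looser rules, which admit more pairs. No paired analysis was possible because each group holds 1 library. With 1 library a group, differences between animals, plane of section and gavage cannot be told apart, and regions with few spots or UMIs have wide intervals.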
